A study of Mus musculus with 12 samples.

Results

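The genes of the cytosolic ribosomal proteins were followed in cells of the mouse angiosarcoma line ISOS-1 after exposure to inhibitors of histone deacetylases and of BET bromodomain proteins. Members were chosen by gene symbol alone. Apart from Rpsa, their names consist of Rpl, Rps or Rplp, a number, an optional single letter (a, x, y or l) and optional further digits. Names of "-ps" pseudogenes and of the Rps6k kinases were left out. The rule found 89 members among 55359 gene identifiers, of which 50 belong to the large subunit, 36 to the small subunit and 3 to the stalk of the large subunit (Rplp0, Rplp1 and Rplp2). Of these, 85 passed the filter for testing (at least 1 TPM in at least 3 libraries), namely 48 of the large subunit, 34 of the small subunit and the 3 stalk genes. Because 6 of the 89 are pseudogenes in the GENCODE M21 annotation (Rps3a2, Rps3a3, Rpl6l, Rpl32l, Rps4l and Rps12l1), 83 members are annotated as protein-coding.

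The cytosolic ribosome translates nuclear messenger RNAs. Its small subunit holds and reads the messenger, and its large subunit joins amino acids into a chain that leaves through an exit tunnel. The stalk is a flexible arm of the large subunit, in which Rplp0 carries dimers of Rplp1 and Rplp2 that recruit the elongation factors. Ribosomal protein messengers are among the most abundant in growing cells, and most begin with a cytosine followed by a run of pyrimidines, the 5′ terminal oligopyrimidine (TOP) motif, through which mTORC1 and the binding protein LARP1 control their translation and stability. Ribosomal proteins made in excess of ribosomal RNA are degraded, and Rpl5 and Rpl11 bound to 5S ribosomal RNA can hold back MDM2, the ubiquitin ligase of p53.

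The 12 libraries were made from total RNA with a kit that reads the 3′ ends of messengers, 3 for each of 4 groups. SAHA (vorinostat), a hydroxamate inhibitor of histone deacetylases, was given at 1 µM for 24 h. VPA (valproic acid), a branched fatty acid with the same class of target, was given at 2 mM for 36 h. JQ1 competes with acetylated histones for the bromodomains of BET proteins, and cells received 1 µM for 36 h. DMSO was the vehicle, and the labels give no duration for it, so drug and exposure time cannot be told apart in comparisons with DMSO. All cells were labelled WT in genotype and grew in DMEM with fetal bovine serum and antibiotics. Whether the replicates were cultured separately is not given, so the p-values speak to the scatter among these libraries alone, and that scatter may be technical.

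Levels are the authors' TPM, a length-scaled abundance whose sum is the same in every library. TPM was divided by transcript length although 3′ reads do not grow with it, so the order of levels between genes depends on that step. TPM keeps no depth, so the counting error of a value is unknown. Between 13735 and 14799 identifiers were above 0 per library. Transcripts of the 37 mitochondrially encoded genes took 14.6% ± 0.526 of TPM with JQ1, 12.2% ± 0.244 with VPA and 11.3% ± 0.340 with SAHA, against 11.1% ± 0.0889 with DMSO (SD, n = 3). The 18S ribosomal RNA identifier Rn18s took between 7.95% and 11.1% of TPM, with the highest share in SAHA library 3. The cells are labelled endothelial, but of 15 blood endothelial markers Cdh5, Vwf, Erg, Cldn5 and Sox17 were at 0 in all 12 libraries and 4 reached 1 TPM. The summed TPM of these 15 markers was 198 to 217 with SAHA, 131 to 166 with VPA, 63.3 to 69.2 with JQ1 and 107 to 124 with DMSO. That of 6 fibroblast markers was 1071 to 1198 with SAHA, 957 to 1029.8 with VPA, 809 to 839.6 with JQ1 and 752 to 794 with DMSO. Leukocyte markers (5 genes) summed to at most 2.74 TPM. The 5 pericyte and smooth muscle markers summed to 34.9 to 40.5 TPM with SAHA, 43.2 to 52.5 with VPA, 19.97 to 27.6 with JQ1 and 49.05 to 61.5 with DMSO. The 5 epithelial markers summed to 21.9 to 25.4 TPM with SAHA, 25.3 to 35.1 with VPA, 30.4 to 40.3 with JQ1 and 10.8 to 12.9 with DMSO, with Epcam at 0 throughout. Of 4 lymphatic markers Flt4 was at 0 and Pdpn alone reached 1 TPM, and the 4 summed to 107 to 122 TPM with SAHA, 105 to 107 with VPA, 45.8 to 49.1 with JQ1 and 69.1 to 77.6 with DMSO. The part of these shifts in the results on ribosomal protein genes was not tested, and in bulk RNA fewer cells of a type and less RNA per cell cannot be told apart.

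Promoter sequences are shown for the genes with the largest called differences between JQ1 and DMSO among those with a promoter window, because ribosomal protein genes are usually described by what stands at their transcription start. Of the 89 members, 64 matched a RefSeq promoter of 300 bases by symbol (build GRCm38.p6). The windows run 5′ to 3′ on the strand of the gene from 20 bases before to 30 bases after the annotated start, and capitals mark runs of at least 5 pyrimidines. The first 4 belong to genes that were higher with JQ1 than with DMSO and the next 5 to genes that were lower.
Rplp0: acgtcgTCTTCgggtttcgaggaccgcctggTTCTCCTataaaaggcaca
Rpl22l1: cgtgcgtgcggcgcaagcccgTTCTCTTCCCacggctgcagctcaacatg
Rpl13a: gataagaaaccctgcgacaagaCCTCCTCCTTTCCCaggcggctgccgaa
Rpl10a: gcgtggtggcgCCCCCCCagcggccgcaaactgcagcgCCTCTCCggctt
Rpl35: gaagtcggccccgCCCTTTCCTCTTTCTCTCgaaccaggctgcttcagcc
Rpl27: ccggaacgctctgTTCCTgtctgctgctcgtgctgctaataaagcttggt
Rps27l: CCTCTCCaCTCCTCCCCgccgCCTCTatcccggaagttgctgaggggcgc
Rpl6: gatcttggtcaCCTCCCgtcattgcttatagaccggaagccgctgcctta
Rpl7l1: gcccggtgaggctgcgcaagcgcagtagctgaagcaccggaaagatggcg
The windows lie at chr5:115559447-115559496 for Rplp0, chr3:28805488-28805537 for Rpl22l1, chr7:45128716-45128765 for Rpl13a (minus strand), chr17:28328451-28328500 for Rpl10a, chr2:39005102-39005151 for Rpl35 (minus strand), chr11:101442225-101442274 for Rpl27, chr9:66946066-66946115 for Rps27l, chr5:121204481-121204530 for Rpl6 and chr17:46782627-46782676 for Rpl7l1 (minus strand). Those without a note are on the plus strand.

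Pyrimidine runs were present on both sides of the comparison. Among the shown genes that were higher with JQ1, the longest run in the window was 14 bases in Rpl13a, 10 in Rpl22l1 and 7 in both Rplp0 and Rpl10a. Among those that were lower it was 18 in Rpl35, 9 in Rps27l, 6 in Rpl6, 5 in Rpl27 and 3 in Rpl7l1. Across the 64 promoters, 62.5% held a run of at least 7 pyrimidines in this window, against 28.5% of all 27025 promoters and 26.3% of the 8868 promoters of tested genes. The 300 bases were also searched on both strands for short motifs known at ribosomal protein genes. CCGGAAG, the core bound by GABP, was in 39.1% of the 64 promoters, 9.12% of all promoters and 20.1% of the promoters of tested genes. AAGATGG, the core bound by YY1, was in 14.1% of the 64, 6.48% of all and 7.82% of those of tested genes. These 2 motifs can share the bases AAG. GGGCGG, the core bound by SP1, was in 59.4% of the 64, 35.9% of all and 66.85% of those of tested genes. The E-box CACGTG was in 7.81% of the 64, 7.24% of all and 10.6% of those of tested genes. TATAAA was in 10.9% of the 64, 14.2% of all and 6.78% of those of tested genes. It was in 3 of the 7 promoters of genes higher with JQ1 (Rplp0, Rpl22l1 and Rps28) and in 1 of the 38 of genes lower. CCGGAAG was in 1 of the 7 and in 17 of the 38. These counts were 6 and 22 for GGGCGG, 1 and 5 for AAGATGG, and 1 and 3 for CACGTG. These matches describe letters in the window, and neither factor binding nor the start used in these cells was measured.

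Ribosomal protein genes took a smaller share of TPM with every drug than with DMSO, and the smallest with JQ1. The share was 19.5%, 19.0% and 18.3% in the SAHA libraries, 18.8%, 18.7% and 19.5% with VPA, 17.7%, 18.1% and 18.2% with JQ1, and 20.4%, 20.3% and 20.5% with DMSO. All 9 drug libraries lay below the 3 DMSO libraries, and the JQ1 libraries lay below all others. By subunit, the large subunit without its stalk took 8.37% ± 0.123 with JQ1 against 9.89% ± 0.0896 with DMSO, and the small subunit 7.38% ± 0.120 against 8.54% ± 0.0387. The stalk went the other way, with 2.24% ± 0.0281 in JQ1 libraries against 1.95% ± 0.0108 in DMSO libraries. With SAHA and VPA the stalk took less, 1.79% ± 0.0433 and 1.72% ± 0.0376. The ratio of stalk to the rest of the large subunit was therefore 26.7% ± 0.453 with JQ1, 19.2% ± 0.344 with SAHA and 18.3% ± 0.0801 with VPA, against 19.7% ± 0.216 with DMSO (SD, n = 3). When the mitochondrial genes and Rn18s were left out of the total, the share was 24.0% with SAHA, 23.9% with VPA, 23.5% with JQ1 and 25.5% with DMSO. Pseudogenes of the "-ps" type (301 identifiers) took 0.846% with SAHA, 0.911% with VPA and 0.815% with JQ1, against 0.981% with DMSO.

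**Figure D1:**
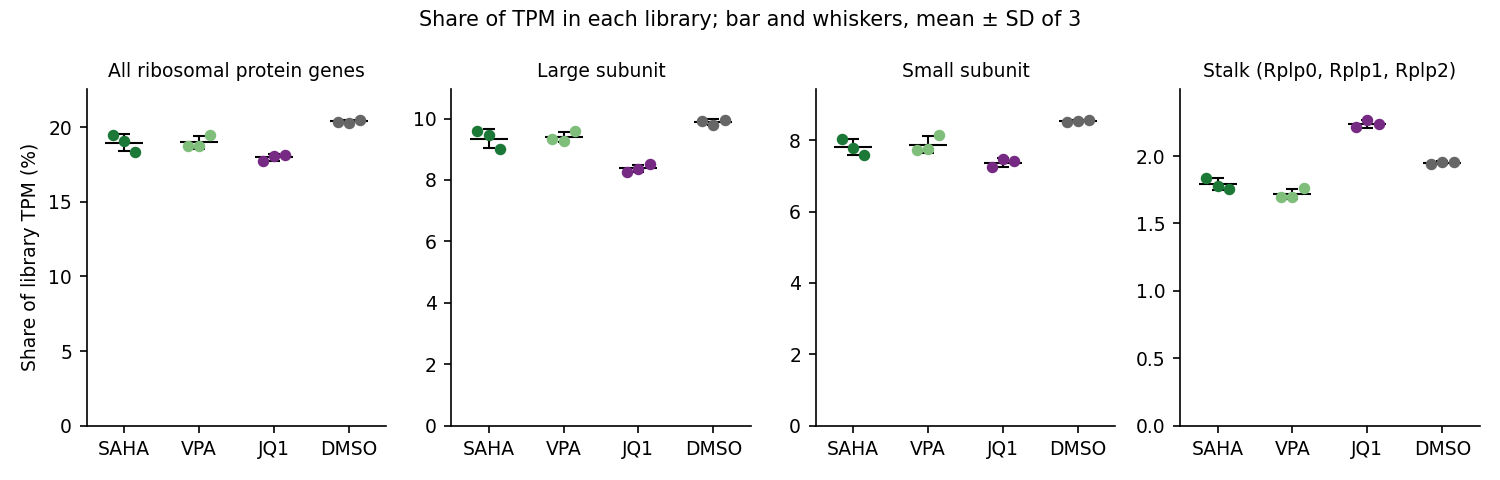
Share of library TPM (%, axis from 0) taken by all 89 ribosomal protein genes, the large subunit, the small subunit and the stalk; points are libraries, bars with whiskers the mean ± SD of 3. The JQ1 points are the lowest in the first 3 panels and the highest for the stalk, where they lie between 2.21% and 2.27%, above the DMSO points.

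Levels within the family covered a wide range. The mean TPM over all libraries exceeded 1000 for 64 members and stayed under 200 for 10. Highest on the TPM scale were Rplp1, Rplp2, Rpl41 (a peptide of few residues), Rps29 (a zinc-binding protein of the small subunit) and Rpl11. Replicates lay close together. For the 79 members with a mean of at least 200 TPM, the median coefficient of variation within a group was 4.16% with SAHA, 3.79% with VPA, 3.16% with JQ1 and 2.92% with DMSO.

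JQ1 lowered most of the family and raised a small part of it. Of the 85 tested members, 52 were lower with JQ1 than with DMSO, 9 were higher and 24 did not pass (limma on log2(TPM + 1), adjusted p under 0.05 by Benjamini and Hochberg over all tested genes). The share of all 12836 tested genes that passed was 21% for lower and 12.9% for higher. The median difference of the 85 members was −0.25 on the log2(TPM + 1) scale, against −0.07 over all tested genes. In the large subunit 30 of 48 were lower and 4 higher, in the small subunit 22 of 34 were lower and 2 higher, and all 3 stalk genes were higher. With median-of-ratios scaling the split was 11 higher and 41 lower, and with quantile normalization 10 higher and 48 lower. Over all 12836 tested genes these splits were 2070 higher and 2290 lower, and 2068 higher and 2196 lower. Leaving out each library in turn, 43 of the 52 lower calls and 8 of the 9 higher calls were kept every time. Rps28, a small-subunit protein, was the higher gene whose call was lost, without DMSO library 3 (adjusted p = 0.0548). Across the 81 tested coding members, which share all libraries, Pearson's r of the difference was −0.0045 with gene length and 0.066 with mean level, given as a description.

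**Figure D2:**
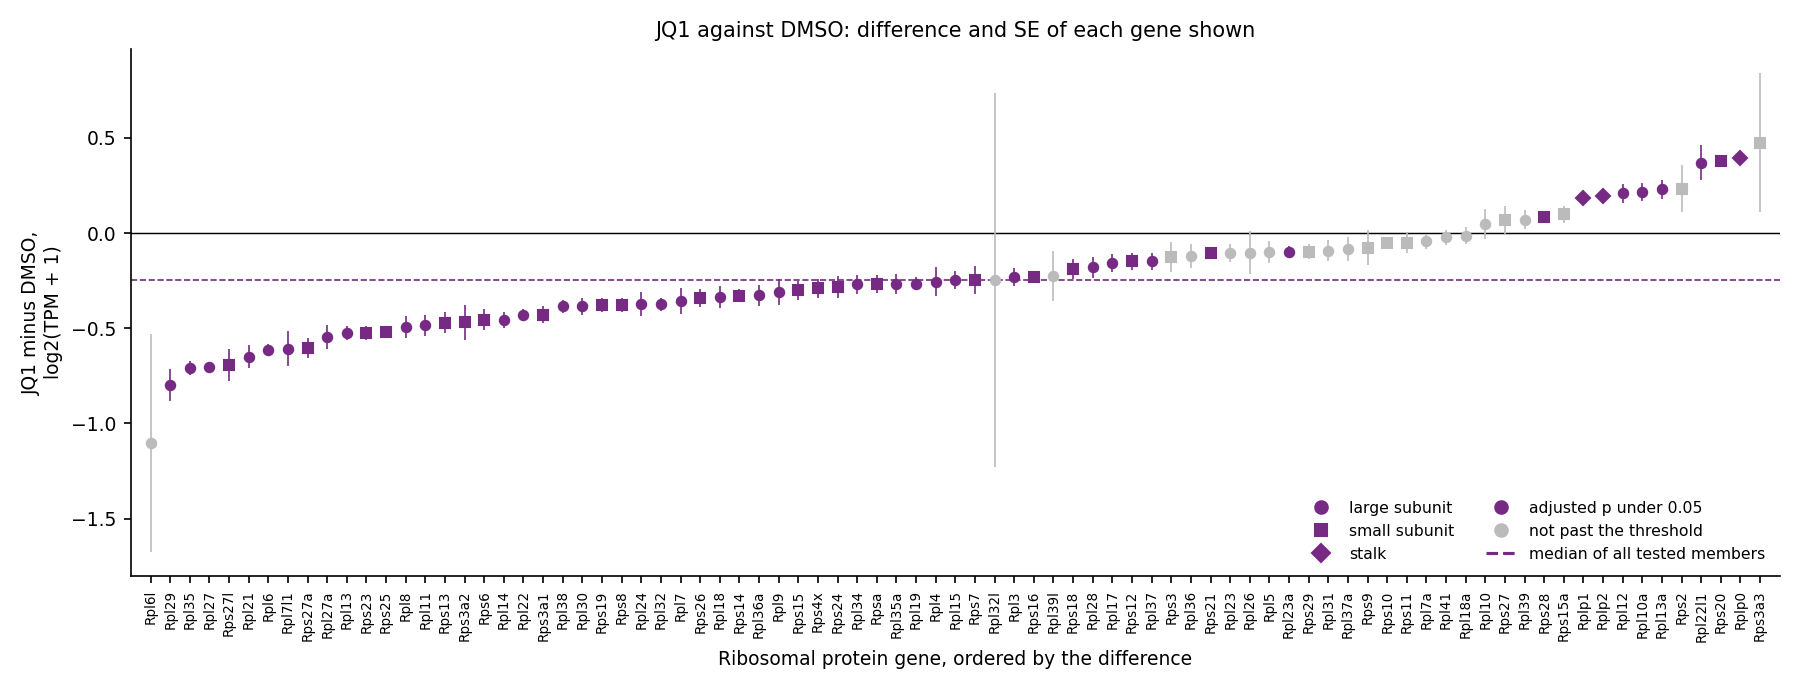
Difference between JQ1 and DMSO (log2(TPM + 1), mean of 3 minus mean of 3) with its standard error for 83 of the 85 tested members, ordered by size; the dashed line is the median of all 85 (−0.25), shapes are subunits and purple marks an adjusted p under 0.05. Most called genes lie below 0, and the 3 stalk genes (diamonds) lie above it, from 0.19 to 0.40; under quantile normalization Rplp1 falls below 0.

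The stalk genes were all higher with JQ1. Rplp0, the protein that anchors the stalk to the large subunit, had 1306, 1302 and 1305 TPM with JQ1 against 975, 994 and 1007 with DMSO. It had 868, 880.3 and 914 TPM with SAHA and 773, 784 and 759 with VPA. The 4 groups did not overlap, with JQ1 highest and VPA lowest. The difference was 0.40 for JQ1 against DMSO (SE 0.034, adjusted p = 5.67e-06). Rplp1, an acidic protein of the stalk dimers, had 14039.7, 14339 and 14193 TPM with JQ1 against 12496, 12485 and 12435 with DMSO, and its difference was 0.19 (SE 0.031, adjusted p = 0.000693). Rplp2, its partner, had 6804, 7061 and 6842 TPM with JQ1 against 5905, 6062 and 6139 with DMSO, a difference of 0.19 (SE 0.026, adjusted p = 0.000151). No JQ1 library overlapped a DMSO library for any of the 3 genes. Under quantile normalization the direction of Rplp1 turned (−0.36, adjusted p = 1.12e-06) and the call of Rplp2 was lost (0.03), while Rplp0 stayed higher. Rplp0 relative to the sum of Rplp1 and Rplp2 was 6.18% ± 0.0916 with JQ1, 5.22% ± 0.274 with SAHA and 4.71% ± 0.182 with VPA, against 5.36% ± 0.0603 with DMSO.

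Other genes higher with JQ1 came from different sites of the ribosome. Rps20, a protein of the small-subunit head, had 4026, 4099 and 4249 TPM with JQ1 against 3213, 3149.7 and 3138 with DMSO (difference 0.38, SE 0.032, adjusted p = 4.99e-06). The lowest JQ1 value was above the highest DMSO value. Rpl22l1, the minor paralogue of Rpl22, had 338, 295 and 267 TPM with JQ1 against 239.6, 209 and 244 with DMSO (difference 0.37, SE 0.093, adjusted p = 0.00975). These groups were also apart, with a wider spread among the JQ1 libraries. Rpl13a, known in human cells for silencing messengers after interferon-γ, Rpl10a, which forms the L1 arm opposite the stalk, and Rpl12, which sits at the base of the stalk, rose by 0.23, 0.22 and 0.21. Rpl12 averaged 1857 ± 28.6 TPM with JQ1 against 1606 ± 46.6 with DMSO, and Rpl10a 1707 ± 44.8 against 1469 ± 67.6. Rps28 averaged 5643 ± 11.3 TPM with JQ1 against 5318 ± 42.1 with DMSO, the smallest called rise (0.09), and it turned to −0.081 under quantile normalization.

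Large-subunit genes included the largest falls with JQ1. Rpl29, a small basic protein, had 365, 325 and 294 TPM with JQ1 against 557, 559 and 591 with DMSO (difference −0.80, SE 0.082, adjusted p = 2.32e-05). Rpl35, which stands at the tunnel exit, had 1323, 1409 and 1377 TPM with JQ1 against 2226, 2292 and 2193 with DMSO (−0.71, SE 0.036, adjusted p = 9.71e-08). Rpl27 had 3016, 2867 and 2951 TPM with JQ1 against 4726, 4821 and 4825 with DMSO (−0.70, SE 0.027, adjusted p = 9.53e-09). In all 3 genes every JQ1 library lay far below the other 9 libraries. Rpl21, with 246, 277 and 263 TPM with JQ1 against 384, 417 and 433 with DMSO, fell by 0.65. Rpl6 averaged 1500.5 ± 36.1 TPM with JQ1 against 2295 ± 25.5 with DMSO and fell by 0.61, and Rpl27a and Rpl13 fell by 0.55 and 0.53. Of the large-subunit genes called lower, 8 fell by more than 0.5. The share of all tested genes that fell as far was not counted, so this number does not set the family apart. Rpl3, which reaches close to the peptidyl transferase centre, fell by less (−0.23, adjusted p = 0.00317), a call lost under quantile normalization and under median-of-ratios scaling, where the difference was as small as −0.091. Rpl41 did not pass, with 6517 ± 168 TPM with JQ1 against 6619.8 ± 174 with DMSO.

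**Figure D3:**
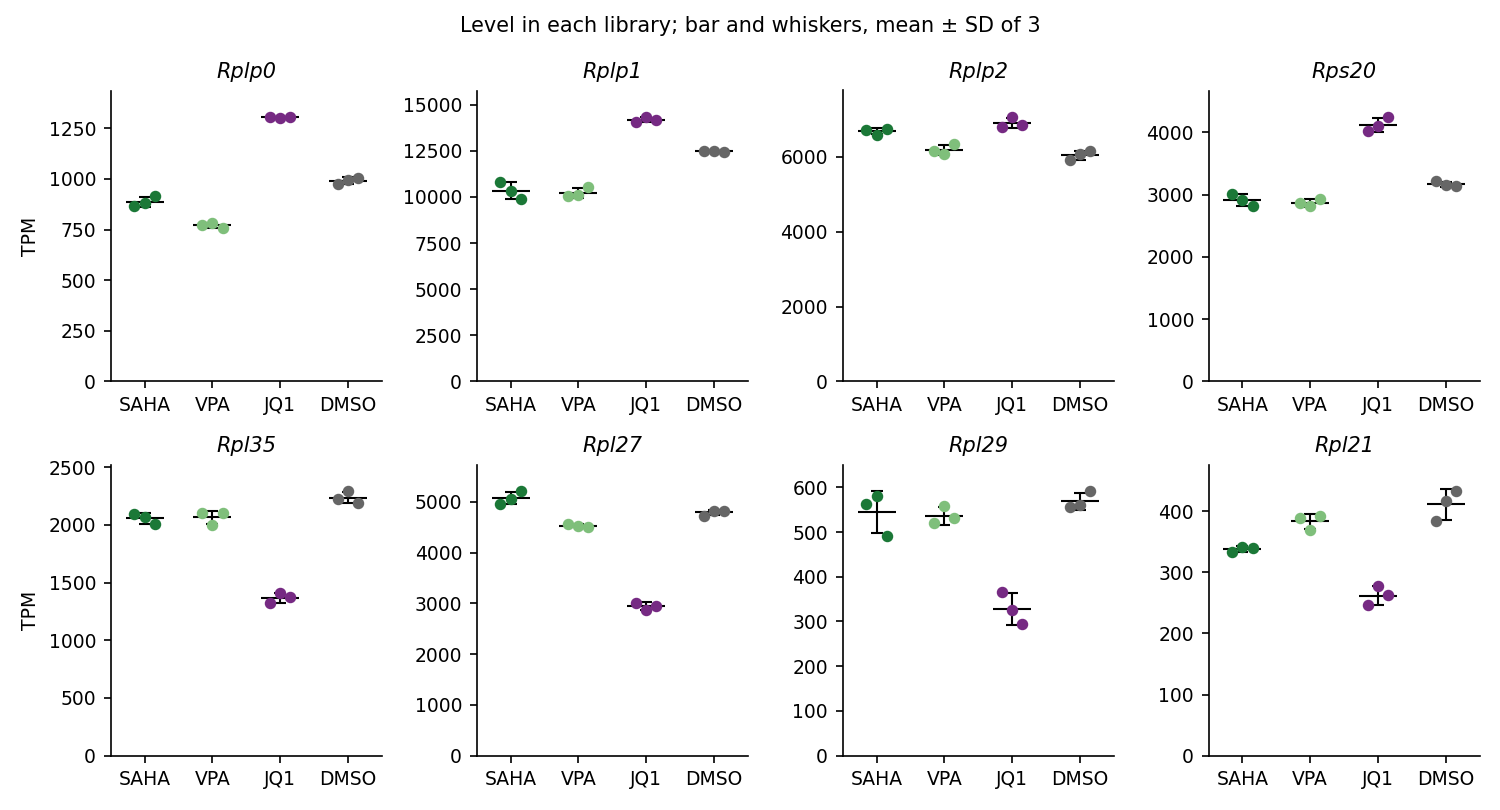
TPM (axis from 0) in each library for the 3 stalk genes, Rps20, and 4 large-subunit genes that fell with JQ1; bars with whiskers are the mean ± SD of 3. JQ1 is above DMSO in the first 4 panels and below in the last 4, for example about 2944 against 4790.5 TPM on average for Rpl27, without overlap; under quantile normalization the direction of Rplp1 turns.

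The median difference with JQ1 was −0.24 for the small subunit and −0.26 for the large subunit, and 4 small-subunit genes fell by more than 0.5. For falls of this size too, the share of all tested genes was not counted. Rps27a, which is made as a fusion with ubiquitin, had 3259, 3169 and 3255 TPM with JQ1 against 4898, 5063 and 4765 with DMSO (difference −0.60, SE 0.053, adjusted p = 6.66e-06). Rps25, needed in yeast and mammals for initiation at some viral internal entry sites, averaged 2940.3 ± 56.0 TPM with JQ1 against 4219 ± 59.9 with DMSO (−0.52, adjusted p = 4.03e-07). Neither gene had a JQ1 library within the DMSO range. Rps6, the substrate of the S6 kinases, fell by 0.46 (adjusted p = 7.38e-05) with 1141, 1273 and 1224 TPM against 1586, 1671 and 1729.8. Rps19, the gene most often mutated in human Diamond-Blackfan anaemia, fell by 0.38, and Rpsa, also known as a laminin receptor, by 0.27. Rps14, which is haploinsufficient in the human 5q- syndrome, averaged 2041 ± 41.3 TPM with JQ1 against 2567 ± 104 with DMSO and fell by 0.33. Rps29 did not pass, at 6289 ± 241 TPM with JQ1 against 6723 ± 149.9 with DMSO (−0.10, adjusted p = 0.0957).

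The 2 proteins that join 5S ribosomal RNA differed from each other. Rpl11 had 4402, 4554 and 4671 TPM with JQ1 against 6385, 6269 and 6412 with DMSO, a difference of −0.48 (SE 0.054, adjusted p = 4.26e-05). Rpl5 had 1428, 1519.9 and 1656 TPM with JQ1 against 1625, 1599 and 1700.1 with DMSO and did not pass (−0.10, adjusted p = 0.235). Libraries of the 2 groups overlapped for Rpl5 and not for Rpl11. The ratio of Rpl11 to Rpl5 was 297% ± 13.4 with JQ1, 417% ± 10.6 with VPA and 385% ± 20.6 with SAHA, against 387% ± 8.86 with DMSO, and the JQ1 libraries stood below all DMSO libraries.

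SAHA lowered 21 of the 85 members relative to DMSO and raised 3, with 61 not past the threshold, while 2.1% of all tested genes were lower and 3.09% higher. The median difference was −0.11, against 0.01 over all tested genes. By subunit, 9 large-subunit, 10 small-subunit and 2 stalk genes were lower. Rplp1 had 10801, 10328 and 9874 TPM with SAHA against 12496, 12485 and 12435 with DMSO (−0.27, SE 0.031, adjusted p = 0.000668), and Rps29 had 5445, 5147 and 5199.5 TPM against 6596, 6684 and 6888 (−0.35, SE 0.041, adjusted p = 0.000857). Both genes were separated from DMSO in every library. Rps12 averaged 5250.2 ± 359 TPM with SAHA against 6345 ± 43.8 with DMSO (−0.28, adjusted p = 0.00536), and Rpl14 averaged 1105 ± 50.4 against 1311 ± 21.8 (−0.25, adjusted p = 0.00641). Rplp2 was higher, with 6712, 6586 and 6747 TPM in SAHA libraries against 5905, 6062 and 6139 in DMSO libraries (0.15, SE 0.026, adjusted p = 0.00819), so that the 2 partners of the stalk dimer moved in opposite directions. Rps14 (0.14) and Rps28 (0.10) were the other higher genes.

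Many of the SAHA calls depended on single libraries. The count of lower members was 9 without SAHA library 2, 11 without SAHA library 3, 13 without DMSO library 1 and 9 without DMSO library 3, and up to 20 without others. Calls of 9 lower genes were kept in every such fit (Rpl14, Rpl23a, Rplp1, Rps12, Rps19, Rps23, Rps29, Rps3a1 and Rps4x), and of the higher genes that of Rplp2. Under quantile normalization Rpl23a and Rps12 did not pass. The largest fitted fall, that of Rpl22l1 (173, 176 and 177 TPM with SAHA against 239.6, 209 and 244 with DMSO, −0.39, adjusted p = 0.0372), was lost without any 1 of the SAHA libraries, JQ1 library 2, DMSO library 1 or DMSO library 3, with an adjusted p of up to 0.119. The call of Rps14 was lost whichever library was left out, and the count of higher members was 1 when any library was left out except SAHA library 3 or VPA library 1 or 3, where it was 2.

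VPA lowered 13 of the 85 members relative to DMSO and raised 0, with 72 not past the threshold, against 1.32% of all tested genes lower and 2.95% higher. At an unadjusted p under 0.05, 0 members were higher and 36 lower, against 11.9% of all tested genes higher and 6.51% lower. The median difference was −0.10, against 0.06 over all tested genes. Rplp0 had 773, 784 and 759 TPM with VPA against 975, 994 and 1007 with DMSO (−0.36, SE 0.034, adjusted p = 0.000274), and Rplp1 had 10060.2, 10094 and 10537 TPM against 12496, 12485 and 12435 (−0.29, SE 0.031, adjusted p = 0.000549). For both the groups were apart. Rpl30, which binds its own messenger in yeast, averaged 1848 ± 55.4 TPM with VPA against 2213 ± 78.4 with DMSO (−0.26, adjusted p = 0.00933), and Rps12 5352 ± 217 against 6345 ± 43.8 (−0.25, adjusted p = 0.0113). These 4 calls and that of Rps19 were among the 6 that held whichever library was left out, but Rpl30 (−0.15) and Rps12 (−0.12) did not pass under quantile normalization. The other 7 did not hold, and the count of lower members was 6 without VPA library 1 or DMSO library 3, 7 without DMSO library 1, and 8 without VPA library 2 or DMSO library 2. With median-of-ratios scaling 30 members were lower, and with quantile normalization 7 were lower and 3 higher. Over all 12836 tested genes, 293 were lower with the former, and 166 were lower and 272 higher with the latter.

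Between the 2 deacetylase inhibitors, which differed in dose and in exposure time, 2 members passed, both higher with SAHA than with VPA, against 0.265% of all tested genes higher and 0.187% lower. These were Rplp0 (887 ± 24.1 TPM with SAHA, 772 ± 12.6 with VPA, difference 0.20, adjusted p = 0.0299) and Rpl27 (5075 ± 124 with SAHA, 4532 ± 28.5 with VPA, 0.16, adjusted p = 0.0284). At an unadjusted p under 0.05, 12 members were higher and 10 lower, against 4.28% of all tested genes higher and 7.13% lower. Neither call held whichever library was left out: the count was 0 without SAHA library 2 or 3, any VPA library or DMSO library 1 or 2, and 1 without SAHA library 1 or JQ1 library 1 or 3.

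JQ1 and VPA were given for the same 36 h. Relative to VPA, 41 of the 85 members were lower with JQ1 and 12 higher, with 32 not past the threshold, against 22.9% of all tested genes lower and 10.3% higher. The median difference of the members was −0.14, the same as over all tested genes. Rplp0 stood furthest apart, with the TPM given above for the 2 groups and a difference of 0.76 (SE 0.034, adjusted p = 4.02e-08). Rpl22l1 (0.70, adjusted p = 0.000156), Rps20 (0.52, adjusted p = 4.86e-07), Rplp1 (0.47, adjusted p = 6.98e-07) and Rpl10a (0.37, adjusted p = 0.000143) followed. On the lower side were Rpl29 (−0.71), Rpl27 (−0.62), Rpl35 (−0.59), Rpl21 (−0.55) and Rpl39l (−0.50). Scaling mattered here. Median-of-ratios scaling moved the median of all genes to 0.00. It gave 26 members higher and 17 lower, against 1927 and 2253 of all 12836 tested genes. With values multiplied by gene length 15 members were higher and 30 lower, against 1607 and 2795 of 12145 genes. The calls of the genes named in this paragraph held whichever library was left out. Of all calls between JQ1 and VPA, 9 of the 12 higher and 33 of the 41 lower did so. Rpl39l was not past the threshold under quantile normalization or median-of-ratios scaling.

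**Figure D4:**
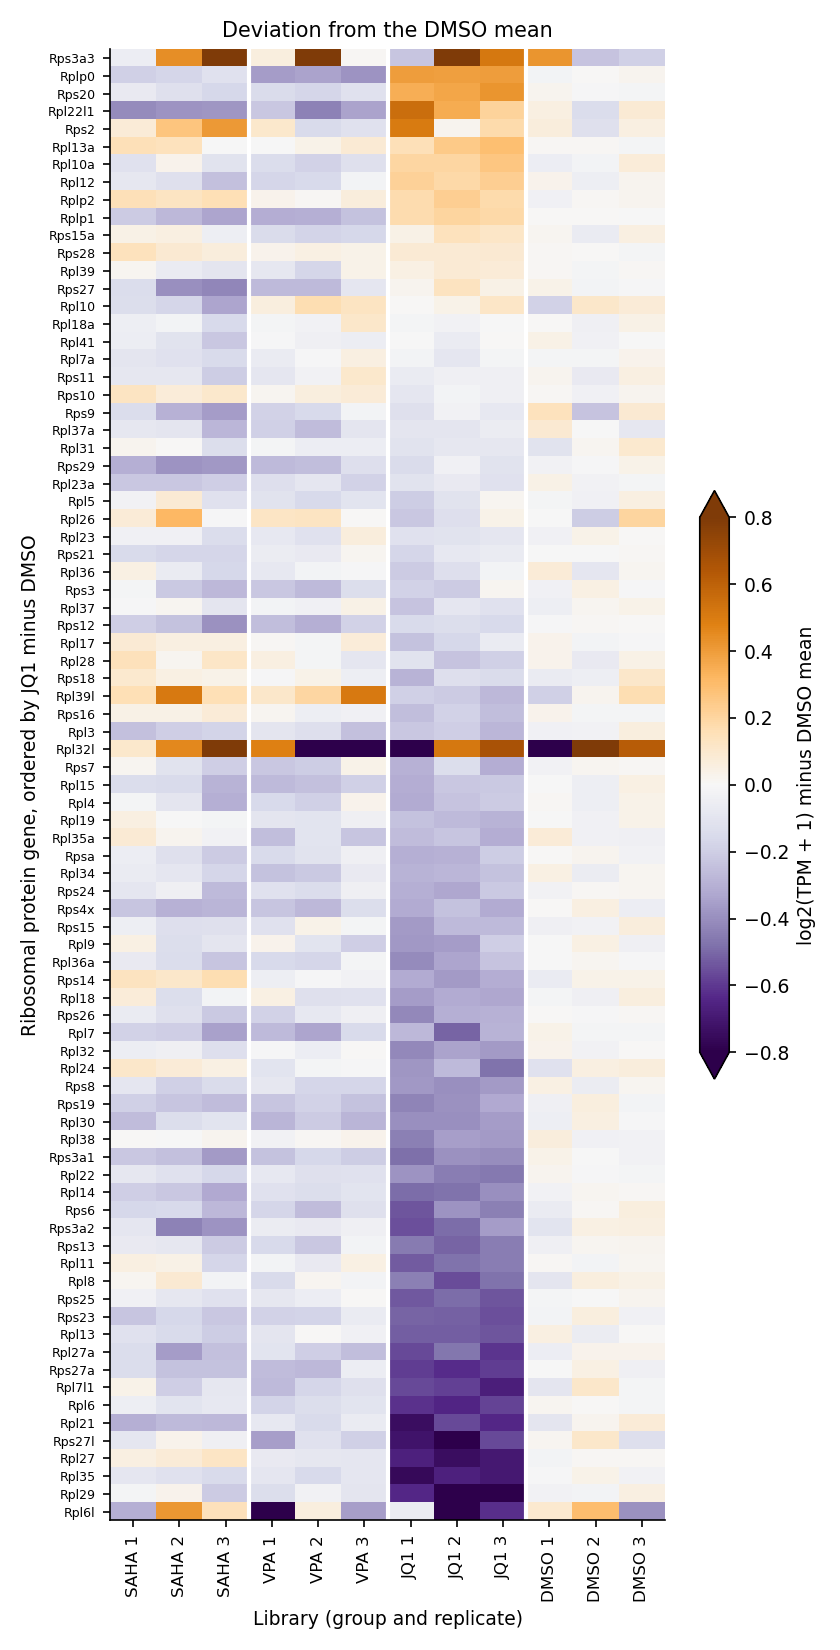
Deviation of each library from the DMSO mean (colour, log2(TPM + 1), limited to ±0.8) for 83 of the 85 tested members in rows, ordered by the JQ1 difference, with libraries of SAHA, VPA, JQ1 and DMSO in columns; 13 of 996 values exceed the colour range. The JQ1 columns are orange at the top (Rplp0, Rps20, Rpl22l1) and dark purple at the bottom, while the SAHA and VPA columns are paler; the noisy rows Rps3a3, Rpl32l and Rpl6l are annotated pseudogenes of low level.

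The comparisons with DMSO share the 3 DMSO libraries, so their values are set side by side only. With all 3 drugs 7 members were called lower, among them Rpl15, Rpl23a, Rps12, Rps19, Rps3a1 and Rps4x. Rpl23a was not lower under every scaling, with 0.0064 for VPA under quantile normalization and 0.020 for JQ1 under median-of-ratios scaling, neither past the threshold. Rps19 averaged 2176 ± 54.0 TPM with SAHA, 2189 ± 40.3 with VPA and 1958 ± 71.4 with JQ1, against 2546 ± 91.2 with DMSO, and was the gene of these 7 whose calls held in all 3 comparisons whichever library was left out. Of the 21 lower with SAHA and the 13 lower with VPA, 10 were shared. JQ1 shared 16 of its 52 lower members with SAHA and 9 with VPA, where 61.2% of the tested members were lower with JQ1. The same overlaps were not counted over all tested genes. The counts of members shared between drugs, or called with all or none, therefore do not show a response particular to the family. Rplp0 and Rplp1 were lower with both deacetylase inhibitors and higher with JQ1, as was Rpl22l1 for SAHA and Rps20 for VPA. Under quantile normalization Rplp1 was instead lower with JQ1 too (limma, −0.36, adjusted p = 1.12e-06). The call of Rplp0 with SAHA was lost without SAHA library 1 or 2 or DMSO library 2 or 3, and that of Rps20 with VPA without VPA library 1 or 2 or any DMSO library. Both calls were also lost under quantile normalization, with only the 2 groups compared in the fit, and with the replicate number as a block. That of Rplp0 was lost as well without mitochondrial genes and Rn18s or multiplied by gene length, and that of Rps20 with no filter. Another 22 members passed with no drug, among them Rpl5, Rpl10, Rpl39, Rpl41, Rps2 and Rps3.

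Ratios between paralogues with JQ1 stood apart from DMSO in the pairs drawn in the plot of paralogue ratios. Rpl22l1 as a percentage of Rpl22, an RNA-binding protein that represses its paralogue in mouse, was 15.7, 14.3 and 13.0 with JQ1, 7.40, 6.60 and 7.01 with VPA and 6.53, 6.80 and 7.08 with SAHA, against 8.39, 7.47 and 8.78 with DMSO. The JQ1 libraries were all above and the other drugs all below the DMSO libraries, and the 2 genes of the ratio had moved in opposite directions with JQ1 (Rpl22 −0.43, adjusted p = 1.72e-06). Rps27l, a target of p53 in human cells, was 17.8% ± 2.04 of Rps27 with JQ1, 36.9% ± 5.00 with SAHA and 29.9% ± 2.99 with VPA, against 30.2% ± 2.62 with DMSO. Its own level fell to 312 ± 25.9 TPM with JQ1 against 506 ± 41.2 with DMSO (−0.69, adjusted p = 7.15e-05), while Rps27 averaged 1759 ± 76.0 against 1678 ± 35.3 and did not pass (adjusted p = 0.527). Rpl36al, which lies outside the name rule, was 24.6% ± 0.842 of Rpl36a with JQ1 against 33.2% ± 0.487 with DMSO. Rpl39l, enriched in mouse testis, was 6.59% ± 0.269 of Rpl39 with JQ1, 10.3% ± 1.64 with SAHA and 10.3% ± 1.01 with VPA, against 8.15% ± 1.02 with DMSO. Its level did not pass in any comparison with DMSO. Rpl7l1 fell with JQ1 to 46.6 ± 1.79 TPM against 71.6 ± 5.36 with DMSO (−0.61, adjusted p = 0.00036), but its ratio to Rpl7 overlapped between the groups.

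**Figure D5:**
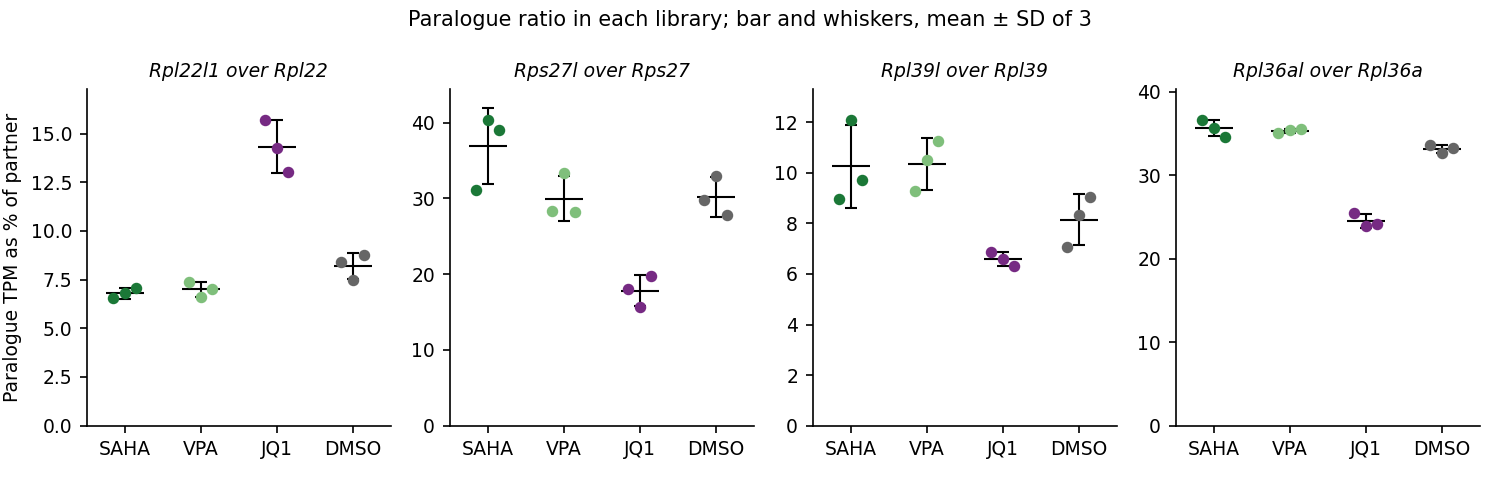
TPM of a paralogue as a percentage of its partner (axis from 0) in each library; bars with whiskers are the mean ± SD of 3. With JQ1 the ratio of Rpl22l1 to Rpl22 is above that of all other libraries, and the other 3 ratios lie below all DMSO libraries.

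Some paralogues of other tissues and some annotated pseudogenes were at or near 0. Rpl3l, a striated muscle paralogue of Rpl3, reached 2.28 TPM at most, Rpl10l, a testis paralogue of Rpl10, was listed at 0.76 TPM in 1 DMSO library and at 0 elsewhere, and Rps4l and Rps12l1 were listed at 0 in all 12 libraries. These 4 members were not tested. Of the annotated pseudogenes that were tested, Rps3a2 was lower with JQ1 than with DMSO (−0.47, adjusted p = 0.00248), beside −0.43 for Rps3a1, and reads of such near-identical copies can be divided between them in the authors' counting. For the same reason levels are uncertain where "-ps" pseudogenes took many reads: summed over libraries, these reached 124% of the TPM of Rpl35a, 110% of Rpl10, 46.7% of Rps13, 44.7% of Rps6, 41.3% of Rpl30, 39.2% of Rps23 and 34.2% of Rpl21. They came to 0.666% for Rpl27, 0.516% for Rpl29 and 0% for Rpl35. With each parent summed with its pseudogenes, an alternative chosen after the data were seen, 51 members were lower and 9 higher with JQ1. Over all 12724 genes in that fit 2687 were lower and 1661 higher.

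Ribosomal proteins with other names were given by a list of 5 genes. Fau, the precursor of a small-subunit protein fused to a ubiquitin-like domain, had 1722, 1751 and 1774 TPM with JQ1 and 2603, 2616 and 2492 with SAHA, against 2179, 2112 and 2304 with DMSO. It fell with JQ1 (−0.33, adjusted p = 7.79e-05) and rose with SAHA (0.23, adjusted p = 0.00884), in each case without overlap. Rpl36al fell by 0.76 with JQ1. Rack1, a signalling scaffold on the small subunit, averaged 2606 ± 68.0 TPM with JQ1 and 2610.3 ± 48.7 with DMSO (difference −0.0025, adjusted p = 0.981).

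Most genes listed as factors that carry new ribosomal proteins into assembly fell with JQ1. The counts of this list and the next ones stand beside those over all tested genes, of which JQ1 lowered 21% and raised 12.9% (median −0.07), SAHA 2.1% and 3.09%, and VPA 1.32% and 2.95%. Of 16 tested genes listed as chaperones and import receptors, 12 were lower and 0 higher than with DMSO, with a median of −0.73. At most 1 passed with SAHA or VPA. The 12 include Nacc1, for which neither role was checked. Grwd1, whose yeast counterpart is a chaperone of Rpl3, had 8.03, 7.68 and 9.58 TPM with JQ1 against 24.1, 28.2 and 29.8 with DMSO (−1.59, adjusted p = 1.31e-05), Rrs1, which in yeast brings the 5S particle to the large subunit, fell by 1.44, Brix1 by 1.38, and Bccip, whose yeast counterpart is a chaperone of Rpl23, by 1.32. The calls of these 4 held whichever library was left out. For the list, the count of lower genes was 9 without JQ1 library 3, 10 without any 1 DMSO library and 11 without JQ1 library 1 or 2. Among 22 other TOP messengers, JQ1 raised 4 and lowered 11 (median −0.22). Those higher included Eef1a1 and Eef2, the elongation factors that act at the stalk. Elongation factor genes did not move together, since Eef1g and Eef1d were among those lower. The call of Eef1d was lost without JQ1 library 1 or DMSO library 2. Eef2 averaged 666 ± 14.4 TPM with JQ1 against 399 ± 9.65 with DMSO (0.74, adjusted p = 3e-07), and Eef1a1 3356 ± 42.3 against 2281 ± 21.9 (0.56, adjusted p = 1.08e-07). Tpt1 rose by 0.72, while Nap1l1, a histone chaperone, fell by 1.04, Hnrnpa1 by 0.97 and Npm1, a nucleolar chaperone, by 0.82. With SAHA 4 of the 22 were higher and 5 lower, and with VPA 0 were higher and 4 lower, where Eef1a1 was lower with each (−0.25 and −0.28).

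Among regulators of TOP messengers and of ribosomal protein promoters, Mlst8 alone was called with SAHA and no gene with VPA. Over all tested genes SAHA lowered 2.1% and raised 3.09%, and VPA 1.32% and 2.95%. Counts this small do not set these lists apart. Of 17 genes of mTORC1 and LARP1 control, JQ1 raised 2 and lowered 4 (11.8% and 23.5%), close to the shares of 12.9% and 21% over all tested genes. Without JQ1 library 2 or DMSO library 2 it raised 1 and lowered 3. Larp1 fell to 22.1 ± 1.82 TPM with JQ1 against 38.6 ± 0.563 with DMSO (−0.78, adjusted p = 6.24e-05), Eif4e, the cap-binding protein, fell by 0.79 and Eif4g1 by 0.52, and Pdcd4, an inhibitor of the helicase eIF4A, rose to 42.0 ± 4.70 TPM against 14.2 ± 1.09. With SAHA Mlst8 was lower, a call lost whichever library was left out, and with VPA 0 passed. Of 12 tested promoter factors 5 were lower with JQ1 (Tbp, Gabpa, Gabpb2, Sp1 and Yy1, between −0.76 and −0.37) and Zbtb7a was higher, and 0 passed with SAHA or VPA. All 6 calls were lost without JQ1 library 1, and again without DMSO library 2, with adjusted p-values of up to 0.160 when single libraries were left out. The count of lower genes was 0 without DMSO library 3, 1 without JQ1 library 3 and 2 without JQ1 library 2 or DMSO library 1. Of 15 tested kinases and modifiers of ribosomal proteins, 5 were lower and 1 higher with JQ1, and 0 passed with SAHA or VPA, by limma. The count of lower genes was 2 without JQ1 library 3 or DMSO library 2 or 3 and 3 without JQ1 library 1. The higher call was lost without any 1 of the JQ1 or VPA libraries, without SAHA library 1, or without DMSO library 1 or 2. Of 8 genes around the 5S particle and p53, JQ1 lowered 4 and raised Hexim1, an inhibitor of P-TEFb that is a common marker of BET inhibition (1.88, adjusted p = 6.12e-06). Trp53 fell by 1.49 with JQ1. Cdkn1a, the p21 cell cycle inhibitor, rose by 1.13 with SAHA and 1.11 with VPA and fell by 0.47 with JQ1, the last a call lost without JQ1 library 1 or 2 or DMSO library 1 (adjusted p up to 0.106).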

How the data were processed

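Values are the authors' deposited TPM per gene identifier, 12 columns with none left out. Tools listed, without roles, in the submitters' processing notes are bcl2fastq 2.17, STAR, RSEM and edgeR, with build mm39. In the sheet of SAHA beside DMSO the identifiers stand 1 line above their values, so the matrix was used. Of the members, 7 listed with no symbol or with several were named by identifier from a reference table of gene names, and biotypes and lengths came from GENCODE M21. The 12836 genes that reached 1 TPM in 3 or more libraries were fitted as log2(TPM + 1) in limma 3.58.1 (R 4.3.3), with 4 group means over 12 libraries, 8 residual degrees of freedom, an intensity trend and no robust shrinkage. Tests were two-sided with Benjamini-Hochberg adjustment over all tested genes. The method was tested on simulated data. Groups are given as mean ± SD of 3 libraries. Named genes are, by rule, the 10 largest called changes in each direction per drug (5 between drugs), the highest 5 levels, paralogue pairs, stalk and 5S proteins, and up to 4 called genes per list. Rps25, Rpl23a, Rps3a2, Sp1, Eef1g, Eef1d, Nacc1 and genes listed for pseudogene reads or as not passing lie beyond it and were picked with their values in view. The members and lists were chosen with earlier results of these data known. A few genes are not reported here by name. Figures used Python 3.11.15 and matplotlib 3.10.9.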

Additional observations from a re-analysis of the deposited data

How the results depend on the processing

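Among the called members, 16 calls changed direction under another setting, 5 under quantile normalization and 11 under median-of-ratios scaling. Under quantile normalization these were Rplp1 (−0.36) and Rps28 (−0.081) for JQ1 against DMSO, Rplp2 (−0.17) and Rps29 (−0.16) for JQ1 against VPA, and Rpl23a (0.0064) for VPA against DMSO. Rpl41, not called for JQ1 against VPA, turned to −0.33 there. Under median-of-ratios scaling they were Rps21 (0.012) and Rpl23a (0.020) for JQ1 against DMSO, and 9 genes for JQ1 against VPA (Rpl17, Rpl19, Rpl28, Rpl37, Rps10, Rps18, Rps19, Rps24 and Rpsa, the last at 0.026) that lay between 0.0074 and 0.088. None of these 11 passed after turning. Counts of ribosomal protein genes moved by over 1.5 times as follows. With no filter on low values SAHA raised 0 and lowered 11 and VPA lowered 7, and 0 were higher with SAHA than with VPA. Over all 21865 genes in that fit SAHA raised 284 and lowered 182, and VPA lowered 126. Of these genes 29 were higher with SAHA than with VPA. With quantile normalization SAHA lowered 12, VPA lowered 7 and raised 3, and 1 was higher with SAHA than with VPA. Over all 12836 tested genes these counts were 251, 166, 272 and 29 in the same order. With median-of-ratios scaling SAHA raised 1, VPA lowered 30, 7 were higher with SAHA than with VPA, and JQ1 against VPA gave 26 higher and 17 lower. Over all 12836 tested genes these counts were 366, 293, 73, 1927 and 2253 in the same order. With only the 2 groups compared in the fit SAHA raised 1 and lowered 9, VPA lowered 7, and 0 were higher with SAHA than with VPA. Over all 12836 tested genes these counts were 214, 155, 70 and 9 in the same order. With values multiplied by gene length 0 were higher with SAHA than with VPA, and with values scaled to the total of other genes, chosen after the data were seen, SAHA raised 1.

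Medians moved beyond the replicate spread under scaling. For JQ1 against DMSO the median was −0.21 with quantile normalization, −0.13 with median-of-ratios scaling, −0.18 without mitochondrial genes and Rn18s, −0.17 multiplied by gene length and −0.29 scaled to other genes. The median of all tested genes was 0.02 with quantile normalization and 0.01 with median-of-ratios scaling, so the members stayed below it. For JQ1 against VPA the members' medians were −0.19, 0.051, −0.088 and −0.075 under the first 4 of these settings. For VPA against DMSO they were −0.049 with quantile normalization and −0.17 with median-of-ratios scaling, which gave 0.064 for SAHA against VPA. The share of TPM multiplied by gene length was 13.7% with SAHA, 13.6% with VPA, 13.4% with JQ1 and 14.5% with DMSO, and without mitochondrial genes and Rn18s it was 24.0%, 23.9%, 23.5% and 25.5% in the same order. The cause was not tested.

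With 1 library left out at a time, SAHA against DMSO gave 9 to 20 lower and 1 to 2 higher, VPA 6 to 14 lower, JQ1 44 to 54 lower and 8 to 9 higher with a median between −0.26 and −0.22, SAHA against VPA 0 to 2 higher, and JQ1 against VPA 34 to 42 lower and 10 to 12 higher. Same-numbered libraries of different groups did not deviate together over all tested genes (residual correlations −0.0449 to 0.0789 over 18 pairs). With 3 libraries per group, these correlations cannot tell whether libraries of the same number shared a culture or a batch. With the replicate number as a block, SAHA raised 1 and lowered 14, VPA lowered 9, JQ1 lowered 52 and raised 9, and 0 were higher with SAHA than with VPA. TPM keeps no read counts, so the counting error of low members such as Rpl32l and Rpl6l is unknown.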
